A study of Mus musculus with 23 samples.

Results

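The MEF2 genes Mef2a, Mef2c and Mef2d encode MADS-box transcription factors, and DNA methylation at their loci was followed across mouse muscle cells. Members were taken by position: every fragment between consecutive CCCGGG sites that overlaps the mm9 body of 1 of the 3 genes, or the 2000 bp upstream of it. The rule itself used no measured value, but the genes were chosen with earlier results of these data known. It gave 26 of 173430 fragments, with 13 at Mef2a, 7 at Mef2c and 6 at Mef2d.

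MEF2 proteins bind A/T-rich DNA elements and act with the MyoD family of muscle regulators to switch on genes of the contractile apparatus and of muscle energy metabolism. Class IIa histone deacetylases bind MEF2 and keep it repressive, and calcium-dependent kinases and calcineurin act upstream to release it. Mef2c is needed for the sarcomeres of skeletal and heart muscle, Mef2a is widely expressed, and Mef2d transcripts are spliced differently in muscle than elsewhere.

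Methylation was measured by AIMS-seq. The enzyme SmaI is blocked by methylation of its CCCGGG site and cuts the unmethylated sites bluntly, after which XmaI opens the sites that remained with cohesive ends. Adaptors fit those cohesive ends alone, so each read marks a fragment with a methylated site on both sides. Counts are thus amounts of amplified fragment, and they do not give the share of DNA copies that is methylated. There were 23 libraries in 9 groups, and the labels give no transgene or deletion.

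Skeletal muscle tissue from males had n = 3, with muscle 1 and muscle 2 of 129Sv/C57BL/6J and muscle 3 of C57BL/6J genotype. Primary myotubes of male C57BL/6J mice were differentiated for 1, 2 or 4 days (n = 3 each), and the proliferating primary myoblasts they came from, at passage 8 to 10, had n = 3. These 4 stages come from the same 3 cultures, numbered 21, 27 and 26, and passage 0 cells are of cultures 26 and 27 (n = 2). Freshly isolated male C57BL/6J myoblasts are a single library taken 3 days after cardiotoxin injury and a single library without injury. Embryonic stem cells (ESC) are the lines CGR8 (129Sv, male), RD1 (129X1/SvJ, male) and E14Tg2 (129/Ola), and CGR8 has a technical replicate that was summed with it, so n = 3. No ESC line is C57BL/6J and no culture is of 129 origin, so strain and cell type cannot be told apart in a comparison with ESC. Muscle tissue also holds cells other than myofibres, whose share was not measured.

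The libraries held 6237851 to 14696855 reads, and levels below are reads per 1000000 reads of a library (rpm). Reads from autosomal promoter CpG islands stood apart in several libraries. They were at 25460.5, 33336.9 and 11397.3 rpm in muscle 1, 2 and 3 and at 5509.9 to 6562.5 rpm in ESC. Late myoblasts and myotubes had 11494 to 38277.1 rpm in culture 27, 5335.6 to 8939 in culture 26 and 2916.5 to 4224.7 in culture 21. Passage 0 cells had 5014.2 rpm in culture 26 and only 3250.3 rpm in culture 27. The 2 CGR8 libraries differed by more than 4-fold at 13.18% of the 10279 fragments from 200 to under 2000 bp with 100 reads or more over both. No transcripts were measured in these libraries, so cell identity was not checked against marker expression.

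The sites shown here are the ends of the fragments that carry the results. At Mef2c, 3 consecutive sites bound 2 adjoining fragments of 611 bp and 360 bp on chromosome 13. RefSeq places a Mef2c start at base 83662655 of mm9, by exact match of its GRCm38.p6 promoter sequence, so that the first base of site 1 lies 745 bases before this start, that of site 2 lies 134 bases before it and site 3 lies within the transcribed part. The letters are the mm9 plus strand, which is the coding strand of Mef2c and Mef2d, and capitals mark CCCGGG. Sites 1 and 2 are at chr13:83661863-83661962 and chr13:83662474-83662573, site 3 is at chr13:83662869-83662898, the Mef2d sites are at chr3:87973566-87973595 and chr3:87974385-87974414, and the Mef2a site, 132 bases before the RefSeq start of that minus-strand gene, is at chr7:74517859-74517888.
Mef2c site 1: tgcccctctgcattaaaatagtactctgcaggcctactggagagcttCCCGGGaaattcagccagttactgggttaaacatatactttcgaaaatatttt
Mef2c site 2: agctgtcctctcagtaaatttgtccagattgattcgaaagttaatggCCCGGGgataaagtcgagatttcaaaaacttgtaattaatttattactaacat
Mef2c site 3: gcttgcagcctcCCCGGGggagcgagcgcg
Mef2d site 1: ctgtagatgaggCCCGGGcccttccccagg
Mef2d site 2: cttcaccccctcCCCGGGctgctctcagtc
Mef2a promoter site: tctttcttctctCCCGGGctctccttttag
Such a site is found in 4436 of 32851 RefSeq promoter windows of 300 bases, or 13.5%. The windows matched on mm9 were 1 for Mef2a, 3 for Mef2c and 1 for Mef2d, and those of Mef2a and of the Mef2c start at 83662655 hold a site.

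Nearly all reads at the MEF2 loci came from a pair of fragments. Of 11625 reads over the 26 fragments and 23 libraries, the Mef2c 611 bp fragment held 6537 (56.2%) and a Mef2d fragment of 819 bp held 4515 (38.8%). The Mef2c 360 bp fragment held 165 reads, a Mef2a fragment of 4752 bp held 84, and 22 of the 26 had 10 reads or fewer in every library. Most of the silent fragments were long, since 19 of the 26 were 2000 bp or longer, and 78.58% of all fragments of that length in the table had at most 10 reads in every library.

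**Figure D1:**
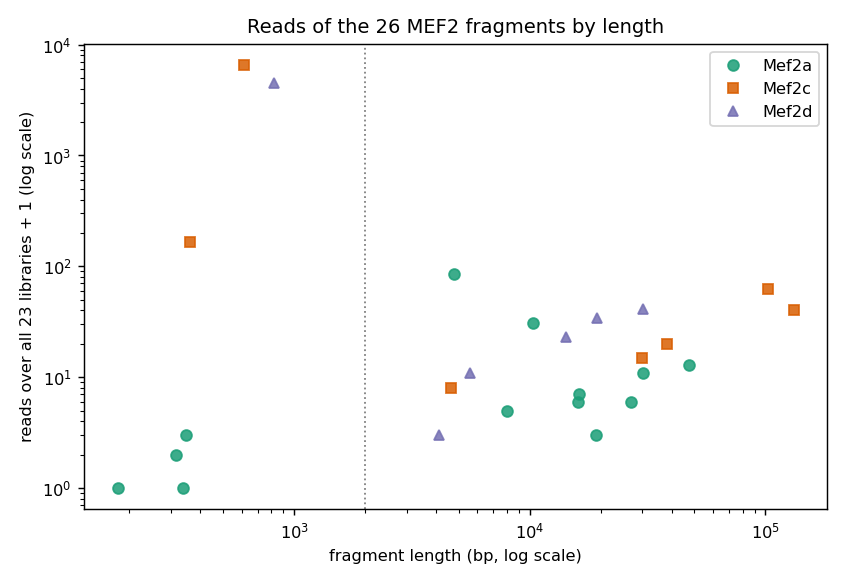
Reads of each MEF2 fragment summed over 23 libraries plus 1 (log scale) against fragment length in bp (log scale), with Mef2a as circles, Mef2c as squares and Mef2d as triangles; the dotted line marks 2000 bp. The 611 bp and 819 bp fragments, with 6537 and 4515 reads, stand far above the others, and 4 short Mef2a fragments lie at the bottom with 0 to 2 reads.

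The Mef2a promoter island was nearly silent in every library. This gene (chromosome 7, 74376049 to 74517744, minus strand) has 4 short island fragments around its start, between bases 74517031 and 74518210, with lengths of 348, 316, 179 and 337 bp. They hold 37, 46, 21 and 23 CpG dinucleotides, and they gave 2, 1, 0 and 0 reads over all 23 libraries. Such values are common for islands: of 10043 island fragments under 400 bp in the table, 79.84% had 1 read or fewer over all libraries and 85.12% had 2 or fewer. The remaining 9 Mef2a fragments were 4752 bp or longer, and 8 of them gave 2 to 30 reads each over all libraries.

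The exception at Mef2a was the 4752 bp fragment inside the gene (74387696 to 74392447), which holds a coding exon and an MTC repeat of the LTR class. It gave 0 reads in each of the 3 muscle libraries. In cultures 21, 27 and 26 it gave 2, 17 and 8 reads in myoblasts, 6, 2 and 10 in day 1 myotubes, 8, 3 and 3 in day 2 myotubes, and 1, 2 and 2 in day 4 myotubes. Passage 0 cells had 6 (culture 26) and 2 (culture 27), fresh cells 5 with and 6 without injury, and ESC 0 apart from 1 read in the CGR8 technical replicate. Reads were thus seen in all 16 libraries of the cultured and fresh cells, in no muscle library and in 1 of 4 ESC libraries. How many other fragments share this pattern was not counted. Against the 3 reads that a count of 0 allows, the floor lies at 0.278 to 0.334 rpm in muscle, so low levels there were not detectable at this depth. Its level over days of differentiation had a slope of -0.59 ± 0.20 log2 per day (SE), with an edgeR quasi-likelihood unadjusted p = 0.0114 and a Benjamini-Hochberg adjusted p = 1 over all fragments. This fit held no term for culture, although libraries of the same culture deviated together (median r 0.711 over 18 pairs). In 16 alternative fits the slope was -0.69 to -0.53, and 0 of them called it.

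At Mef2c (chromosome 13, 83643033 to 83806684, plus strand) the 611 bp fragment (83661913 to 83662523) is classed as a CpG island shore. GENCODE M1 places it in an intron of the longer transcripts, and it ends upstream of the RefSeq start at 83662655. It is poor in CpG, with 7 in 611 bp, 36.3% GC and a CpG observed over expected ratio of 0.348. E-box letters, CANNTG on either strand, occur at 2 places in it (CAGCTG and CATTTG), and 90.73% of the 4251 fragments of 500 to 750 bp hold at least 1. The MEF2 consensus was not found in it, and 4.47% of those fragments hold it.

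Methylated ends of this Mef2c shore fragment were recovered least often in ESC and most often in myotubes and muscle. Muscle 1, 2 and 3 had 48.7, 18.1 and 39.5 rpm. In cultures 21, 27 and 26 the level was 10.5, 20.0 and 25.9 rpm in myoblasts, 11.8, 49.2 and 61.1 rpm at day 1, 16.7, 68.5 and 57.8 rpm at day 2, and 19.7, 52.1 and 51.99 rpm at day 4. ESC had 5.78 and 7.34 rpm in the 2 CGR8 libraries, 6.84 rpm in RD1 and 4.78 rpm in E14Tg2. Every muscle, myotube and myoblast library thus lay above every ESC library, while muscle, myotubes and myoblasts overlapped one another. The share of all fragments that separate from ESC in this way was not counted. The earlier muscle cells lay between ESC and late myotubes: passage 0 cells had 8.66 rpm (culture 26) and 14.7 rpm (culture 27), and fresh cells had 14.1 rpm with injury (95% Poisson interval 11.5 to 16.96) and 9.46 rpm without (7.20 to 12.2). These intervals cover counting error only, and the fresh libraries have no replicate.

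By group means the order from high to low was day 2 myotubes at 47.7 ± 27.3 rpm, day 4 myotubes at 41.3 ± 18.6, day 1 myotubes at 40.7 ± 25.7, muscle at 35.4 ± 15.7, myoblasts at 18.8 ± 7.76 and ESC at 6.01 ± 1.09 (SD, n = 3 each). The SDs of the myotube stages and muscle exceed the gaps between them, so the order among these 4 is not resolved. Among the 27763 fragments from 200 to under 2000 bp, the Mef2c shore stood at percentile 80.21 in muscle, 84.62 in day 2 myotubes, 73.36 in myoblasts and 62.11 in ESC. It was therefore an above-median fragment in each of these groups, ESC included.

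**Figure D2:**
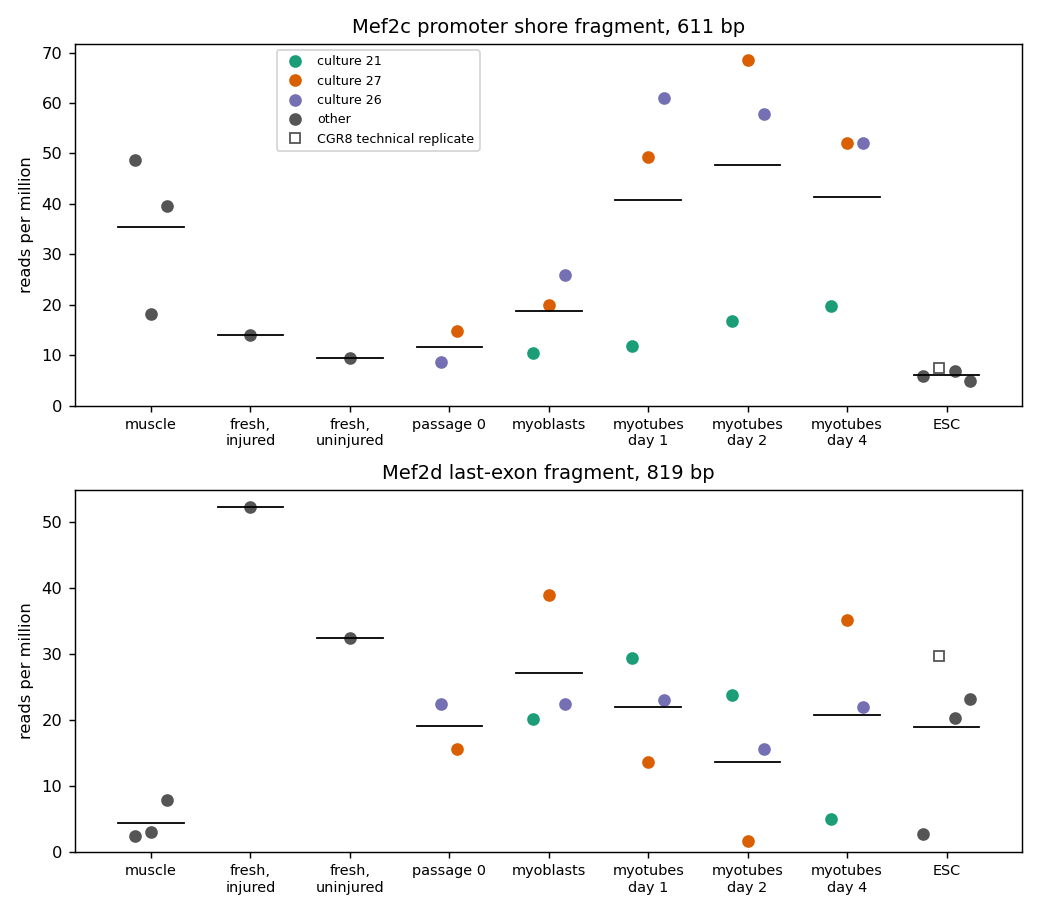
Level in rpm of the Mef2c shore fragment (top) and the Mef2d last-exon fragment (bottom) in each of 23 libraries, with black bars for group means and colours for the 3 cultures; the ESC mean counts the 2 CGR8 libraries, the technical one drawn as an open square, as 1 sample. At Mef2c all ESC libraries lie at 4.78 to 7.34 rpm, below all others, and at Mef2d the 3 muscle libraries lie at 2.31 to 7.76 rpm.

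Against ESC the Mef2c shore rose in all 3 groups tested. In muscle it was higher by 3.34 ± 0.46 on the log2 scale (SE, edgeR quasi-likelihood test, Benjamini-Hochberg adjusted p = 0.000290), where 24.4% of 22980 fragments tested were called higher and 34.6% lower. In day 4 myotubes it was higher by 3.18 ± 0.58 (edgeR adjusted p = 0.00691), where 5.42% of 25497 fragments were called higher and 5.93% lower. In myoblasts it was higher by 1.79 ± 0.51 (edgeR adjusted p = 0.0351), where 8.22% of 25152 fragments were called higher and 11.7% lower. These comparisons share the same ESC libraries. Of the 26 members, 2 entered each of these tests and 1 was called higher, too few to set a share against those backgrounds.

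The fold changes rest on TMM scaling, under which the median of all fragments moved by -0.34 log2 in muscle against ESC. With library totals the median moved by -1.17 and the Mef2c shore by 2.53. The muscle call held in all 15 alternatives, with adjusted p between 8.24e-12 and 0.00302, and muscle 3, the C57BL/6J animal, was above all ESC libraries too. The day 4 call was lost without RD1 (edgeR adjusted p = 0.0583) or E14Tg2 (0.0830). The myoblast call held in 4 of 14 alternatives and was lost without CGR8 (edgeR adjusted p = 0.0536), RD1 (0.118), E14Tg2 (0.180), culture 27 (0.0524) or culture 26 (0.0849), while without culture 21 it was 0.00814. The myoblast call was lost too with library totals, with fragments under 2000 bp, with all groups in 1 fit and with the first CGR8 library alone.

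Differences among muscle, myotubes and myoblasts did not pass the edgeR test. Muscle was 1.45 ± 0.54 log2 above myoblasts (edgeR adjusted p = 0.0671, unadjusted p = 0.0239; DESeq2 adjusted p = 0.0299), in a comparison where 13.7% of 20274 fragments were called higher and 17.4% lower. Muscle against day 4 myotubes gave 0.16 ± 0.62 (edgeR adjusted p = 0.890), and 0% of 19353 fragments passed there, with 4613 at an unadjusted p under 0.05 760 higher and 1470 lower by DESeq2, and 77 higher and 445 lower by edgeR without the filter. Muscle 2 was the lowest muscle library at Mef2c and had the highest promoter island reads, and the part of those reads in this result was not tested.

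Within each culture the Mef2c shore was higher in myotubes than in the myoblasts they came from. The ratio to the same culture's myoblasts was 1.12, 1.59 and 1.88 on days 1, 2 and 4 in culture 21, 2.47, 3.43 and 2.61 in culture 27, and 2.36, 2.23 and 2.01 in culture 26. All 9 ratios exceed 1, but those of a culture share the same myoblast library as denominator. They are thus not 9 independent observations, and the share of all fragments with this pattern was not counted. Culture 21 was the lowest of the 3 at all 4 stages and also had the fewest promoter island reads, whose part in the result was not tested.

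**Figure D3:**
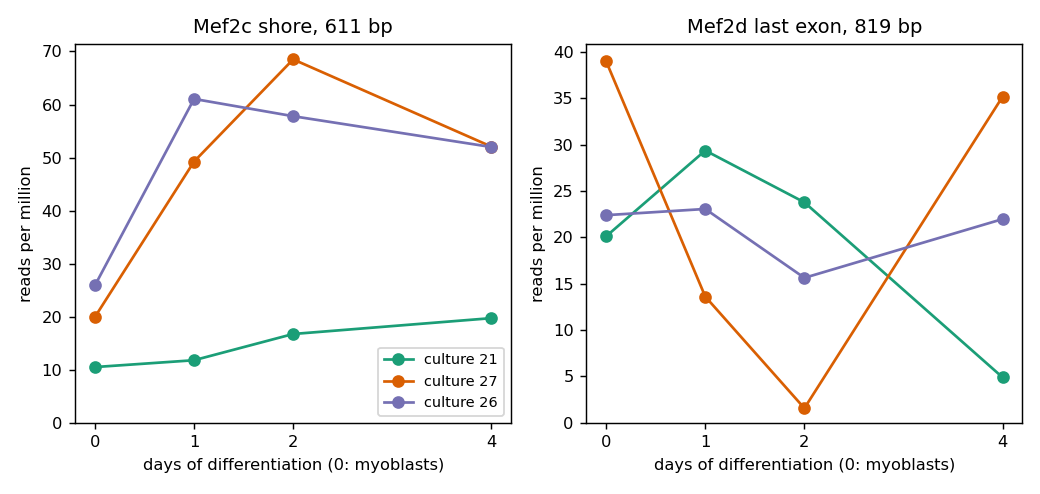
Level in rpm of the Mef2c shore (left) and the Mef2d last-exon fragment (right) by day of differentiation, with myoblasts at day 0 and 1 line per culture. At Mef2c the day 1, 2 and 4 points of each culture lie above its day 0 point, and at Mef2d the 3 cultures move in different ways.

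Tested over all fragments, these steps did not pass. Against myoblasts the change was 1.32 on day 1, 1.56 on day 2 and 1.28 on day 4 (unadjusted p = 0.102, 0.0546 and 0.0651, edgeR adjusted p = 1.00 each). With culture as a replicate block the changes were 1.10, 1.35 and 1.33, with edgeR adjusted p = 1, 0.906 and 0.524. With the low-count filter and no block no fragment of the table passed, 0% of 22016, 21781 and 22438 tested on days 1, 2 and 4, where edgeR gave 6, 64 and 83 at an unadjusted p under 0.05 and DESeq2 called 0 in each. Without the filter edgeR called 25 higher and 6 lower on day 1, 0 higher and 4 lower on day 2, and 100 higher and 7 lower on day 4, with no MEF2 fragment among them. The block gave 39 calls on day 4, all higher, and no MEF2 fragment among them. The trend over days had a slope of 0.25 ± 0.20 log2 per day (edgeR adjusted p = 1), with 0% of 25140 fragments passing, 450 at an unadjusted p under 0.05, 0 calls by DESeq2, and 4 higher and 1 lower by edgeR without the filter.

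Late myoblasts had more Mef2c shore reads than passage 0 cells in both cultures that had a passage 0 library. Culture 27 had 20.0 rpm in late myoblasts and 14.7 rpm at passage 0, and culture 26 had 25.9 rpm and 8.66 rpm. The fit of all late myoblasts against passage 0 gave 0.34 ± 0.66 (edgeR adjusted p = 0.978), and 0% of 23419 fragments passed, with 665 at an unadjusted p under 0.05, 3 called by DESeq2 and 51 higher and 0 lower by edgeR without the filter. With the replicate block the table had 821 calls higher and 175 lower, and the Mef2c change was 0.59 with an adjusted p of 0.746.

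The neighbouring Mef2c fragment of 360 bp (83662524 to 83662883) spans the RefSeq start and shares site 2 with the shore fragment. It is classed as island and shore, with 19 CpG and 53.6% GC, and its level was far lower. Muscle 1, 2 and 3 had 9, 13 and 8 reads, and day 4 myotubes had 71 reads in culture 27 and 9 in culture 26. Day 1 myotubes of culture 27 had 24 reads, the other myoblast and myotube libraries had 0 to 5, fresh cells had 4 with and 7 without injury, passage 0 cells had 0, and the ESC libraries had 0 and 1 in CGR8, 4 in RD1 and 1 in E14Tg2. The mean was 1.03 ± 0.37 rpm in muscle, 2.03 ± 2.74 rpm in day 4 myotubes, 0.302 ± 0.269 rpm in myoblasts and 0.186 ± 0.187 rpm in ESC (SD, n = 3 each). Muscle thus did not overlap ESC or myoblasts, while the myotube mean rests on 1 library. The share of all fragments without such overlap was not counted. The day 4 and day 1 libraries of culture 27 were also the pair with the most promoter island reads, at 35777.3 and 38277.1 rpm, and their part in the result was not tested.

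This fragment did not pass the low-count filter, so it has no main test. Without the filter it was called higher in muscle than in ESC, by 3.30 log2 (edgeR adjusted p = 0.00894), and higher in day 4 myotubes than in ESC, by 4.05 (edgeR adjusted p = 0.0124). The day 4 difference was not called where the fragment passed the filter, without RD1 (edgeR adjusted p = 0.203) or without E14Tg2 (0.419). Muscle against myoblasts was not called without the filter either (2.47, edgeR adjusted p = 0.187). In the authors' deposited table it is higher in muscle than in ESC by 1.70 log2 after 1 was added to each mean (adjusted p = 0.00243 with pooled dispersion), while for day 4 myotubes over ESC the authors' deposited table gives 2.60 with an adjusted p of 0.412 with pooled and 0.00146 with per-condition dispersion. For the 360 bp fragment in muscle over myoblasts the same source gives 1.46, with a DESeq adjusted p of 0.0294 with pooled and 0.0665 with per-condition dispersion. For muscle over ESC it gives 2.36 at the Mef2c shore and -2.22 at the Mef2d 819 bp fragment (DESeq adjusted p = 0.000283 and 0.0312 with pooled dispersion).

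**Figure D4:**
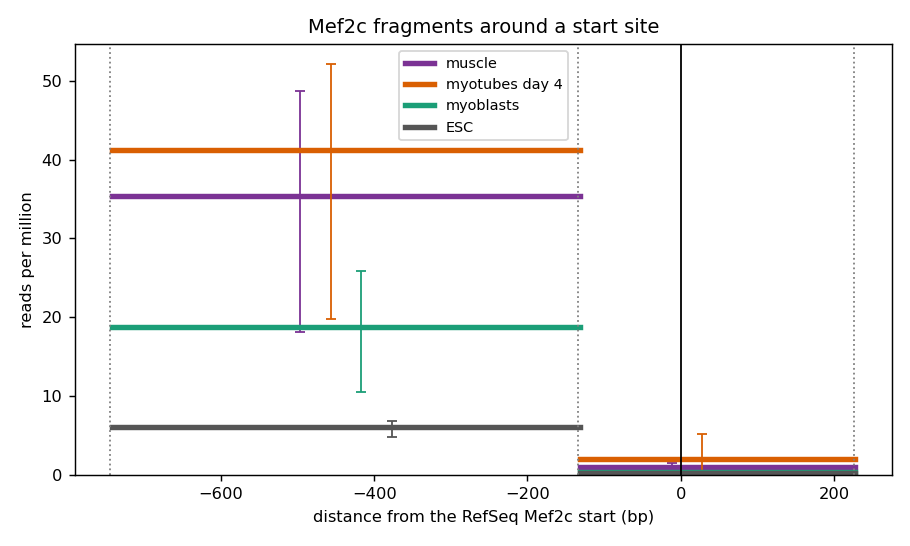
Level in rpm of the 2 adjoining Mef2c fragments by distance in bp from the RefSeq start, with each horizontal line the group mean over the length of a fragment, vertical bars from the lowest to the highest sample (n = 3 each) and dotted lines at the 3 sites. Left of site 2 the means run from 41.3 rpm in day 4 myotubes and 35.4 in muscle to 6.01 in ESC, while across the start they are 2.03 or less.

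The other 5 Mef2c fragments are 4655 to 131794 bp long and gave 7 to 61 reads each over all libraries, with at most 9 in any library. The other RefSeq starts of Mef2c, at 83643033 and 83712765, have no site in their promoter windows, so their methylation was not measured at close range.

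At Mef2d (chromosome 3, 87946294 to 87976008, plus strand) the measurable fragment lies at the far end of the gene. The 819 bp fragment (87973581 to 87974399) is in the 3′ UTR of the last exon, downstream of the coding sequence that ends at 87972562. It carries no island, shore or repeat class, with 9 CpG and 52.7% GC. The RefSeq promoter window of Mef2d holds no site, and the other 5 fragments of the gene, 4123 to 30353 bp long, gave 2 to 40 reads each over all libraries.

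The Mef2d fragment was recovered less often in muscle than in myoblasts or ESC. Muscle 1, 2 and 3 had 2.31, 3.01 and 7.76 rpm, with a mean of 4.36 ± 2.97. Myoblasts had 20.1, 39.0 and 22.4 rpm in cultures 21, 27 and 26, with a mean of 27.2 ± 10.3. ESC had 13.5 rpm in CGR8, 20.2 in RD1 and 23.2 in E14Tg2, with a mean of 19.0 ± 4.95 (SD, n = 3 each). The 3 muscle samples thus lay below all myoblast and ESC samples, and how many other fragments separate like this was not counted. Fresh cells had 52.3 rpm with injury (95% Poisson interval 47.3 to 57.6), the highest of the 23 libraries, and 32.4 rpm without (28.1 to 37.2), and passage 0 cells had 22.4 rpm (culture 26) and 15.6 rpm (culture 27).

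The CGR8 value at Mef2d hides a large technical difference. The first CGR8 library had 2.72 rpm and its technical replicate 29.7 rpm, which is 10.9-fold more, and 7.95% of the 10279 well-covered fragments differed by more than 8-fold between these libraries. The first CGR8 library alone lies within the range of the muscle samples.

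In the tests the Mef2d fragment was lower in muscle than in myoblasts, with a change of -2.16 ± 0.56 log2 (SE, edgeR adjusted p = 0.0215), and lower in muscle than in ESC, with -1.34 ± 0.47 (edgeR adjusted p = 0.0327). It was the only MEF2 fragment called lower with these settings, of 2 tested in each of these comparisons. Over all fragments, 17.4% of 20274 were called lower against myoblasts and 34.6% of 22980 against ESC. The ESC call held in 6 of 15 alternatives. It was lost with the first CGR8 library alone (edgeR adjusted p = 0.268), with the CGR8 libraries kept apart (0.142), without RD1 (0.0686), E14Tg2 (0.104), muscle 1 (0.183) or muscle 2 (0.1102), without a filter (0.108), with all groups in 1 fit (0.181) and with muscle 3 as the only muscle sample (0.444). The myoblast call held in 7 of 12 and was lost without culture 27 (edgeR adjusted p = 0.0649), muscle 1 (0.145) or muscle 2 (0.0963), without a filter (0.0896) and with muscle 3 alone (0.578). Without muscle 1 or muscle 2 no fragment of the whole table passed in muscle against myoblasts by edgeR, with 7165 and 7725 at an unadjusted p under 0.05. Muscle 1 and 2, the animals of mixed 129Sv/C57BL/6J genotype, are the lower pair, and with a single C57BL/6J muscle sample strain and tissue cannot be told apart.

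Myotubes showed no common course at Mef2d. In cultures 21, 27 and 26 the level was 29.4, 13.6 and 23.1 rpm at day 1, 23.8, 1.57 and 15.6 rpm at day 2, and 4.89, 35.2 and 21.96 rpm at day 4. The lowest library was that of culture 27 on day 2 and that of culture 21 on day 4, so neither drop was shared between cultures. Day 4 myotubes did not differ beyond the spread from ESC (0.49 ± 0.63 log2, edgeR adjusted p = 0.679), nor myoblasts from ESC (0.70 ± 0.41, edgeR adjusted p = 0.279), and muscle against day 4 myotubes gave -1.83 ± 0.75 (edgeR adjusted p = 0.188). On days 1, 2 and 4 the change against myoblasts was -0.07, -0.89 and -0.33 (edgeR adjusted p = 1.00 each).

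**Figure D5:**
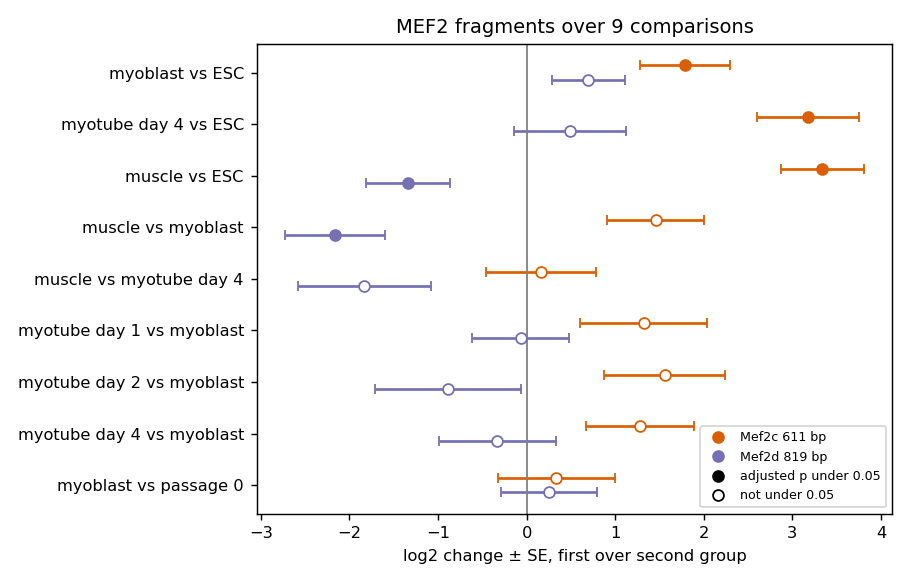
Log2 change ± SE of the Mef2c shore (orange) and the Mef2d last-exon fragment (purple) in 9 comparisons, the first-named group over the second, with filled symbols for an edgeR adjusted p under 0.05. Mef2c is filled in the 3 comparisons with ESC, at 1.79, 3.18 and 3.34, and Mef2d in muscle against ESC and against myoblasts, at -1.34 and -2.16.

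Across the 22 samples with CGR8 summed, the 2 fragments did not run in parallel, with a Pearson r of -0.35 on log2(rpm + 1) as a description only. Among 6561 other gene fragments from 200 to under 2000 bp with a mean of at least 5 rpm, those most like the Mef2c shore were at Nebl (r = 0.88, chromosome 2, 17650552 to 17651638), Spred1 (0.88), Dmrt3 (0.85), Ccdc88c (0.84) and Col18a1 (0.82), against a median r of -0.05. Of these 5, 4 were also among the 5 most alike by Spearman's rho. The fragments at Nebl, Spred1 and Dmrt3 are CpG shores like that of Mef2c. Nebl, which encodes the actin-binding protein nebulette, averaged 56.9 rpm in muscle, 36.1 in day 4 myotubes, 22.7 in myoblasts and 7.54 in ESC. Spred1, an inhibitor of Ras signalling, averaged 55.9 rpm in muscle, 91.0 in day 4 myotubes, 62.4 in myoblasts and 5.89 in ESC. These samples share libraries, cultures and depth, so the likeness is not independent evidence.

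The genes that act with MEF2 were looked at as a list of 42 partners and regulators. In muscle against ESC, 11 of 64 tested fragments of these genes were called higher and 25 lower (edgeR adjusted p under 0.05), with a median change of -0.68 log2 against -0.34 over all fragments. In muscle against myoblasts 7 of 58 were higher and 15 lower, with a median of 0.18 against -0.13. In myoblasts against ESC 4 of 72 were higher and 11 lower, and in day 4 myotubes against ESC 3 of 77 were higher and 2 lower. Without muscle 1 or muscle 2, 0 fragments of the list passed in muscle against myoblasts, as in the whole table, and without culture 26 the 22 calls became 11. In myoblasts against ESC the 15 calls became 9 without E14Tg2 and 8 without culture 26, and in day 4 myotubes against ESC the 5 calls became 13 without culture 21 and 11 without culture 27. The shares of all fragments called in these comparisons are those given above, and the lists are described without a test of their own.

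By role, the 4 class IIa deacetylases, the direct repressors of MEF2, had 8 fragments tested in muscle against ESC, of which 1 was called higher and 5 lower, with 4 of the 5 at Hdac4. The co-activators and other partners had 2 of 34 higher and 15 lower, and the kinases and phosphatases upstream of MEF2 had 8 of 19 higher and 4 lower. Over all fragments 24.4% were called higher and 34.6% lower there. The 8 higher kinase and phosphatase fragments include Camk2b fragments of 388, 121 and 183 bp, of which the 121 and 183 bp ones adjoin. Camk2a and Map2k6 each had fragments called in both directions. The strongest call in each direction gives the examples. At Tead1, a TEAD factor that binds muscle promoters, a promoter shore fragment of 748 bp had 34.4, 29.8 and 16.1 rpm in muscle and 0.653, 1.79 and 0.716 rpm in ESC (5.56 ± 0.60 log2, edgeR adjusted p = 6.61e-05). A Tead1 fragment of 2586 bp outside the promoter was called lower in the same comparison (-1.79 ± 0.46, edgeR adjusted p = 0.00781). At Camk2b, which encodes a subunit of the calcium/calmodulin-dependent kinase II, a 388 bp fragment had 182, 171 and 268 rpm in myoblasts and 6.94, 2.38 and 5.01 rpm in ESC (5.59 ± 0.66, edgeR adjusted p = 0.000324). The groups do not overlap at the 748 bp or the 388 bp fragment. Both were picked as strongest calls in these same samples, so the separation adds nothing to the calls.

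At Ncoa2, which encodes the nuclear receptor co-activator that binds MEF2, a fragment of 18052 bp had 0.0925, 0 and 0.199 rpm in muscle against 15.7, 21.3 and 21.9 rpm in ESC (-6.71 ± 0.68 log2, edgeR adjusted p = 4.70e-05). A promoter island fragment of 208 bp of this gene was called higher in the same comparison (4.76 ± 0.86, edgeR adjusted p = 0.00127). Strain and cell type cannot be told apart there, and 78.58% of fragments of 2000 bp or more had at most 10 reads in every library. At Crebbp, which encodes the acetyltransferase CBP, a fragment of 1286 bp had 2.40, 2.79 and 8.86 rpm in muscle against 117, 97.7 and 92.4 rpm in myoblasts (-4.07 ± 0.61 log2, edgeR adjusted p = 0.0120), a call lost without muscle 1 or muscle 2. At Prkd1, which encodes a kinase that phosphorylates class IIa deacetylases, a fragment of 2100 bp had 11.99, 5.15 and 10.1 rpm in day 4 myotubes against 0.163, 0 and 0.239 rpm in ESC (6.61 ± 1.10 log2, edgeR adjusted p = 0.00462). The compared groups do not overlap at the fragments of 18052, 1286 and 2100 bp. These fragments too were picked as strongest calls, so their separation is no added support.

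Fragments of muscle genes known as MEF2 targets, a list of 43, were called in both directions, as were those of the whole table. In muscle against ESC 7 of 27 tested fragments were called higher and 10 lower, beside 24.4% higher and 34.6% lower over all fragments. The median was -0.53 log2 against -0.34 over all fragments. In muscle against myoblasts 7 of 24 were higher and 7 lower, beside 13.7% and 17.4% over all fragments. In muscle against ESC the fragments of contractile and sarcomere genes gave 2 of 19 higher and 9 lower, and those of metabolic and other genes gave 5 of 8 higher and 1 lower. These counts rest on few genes and the groups were not tested against each other: both higher contractile fragments adjoin at Ldb3, 5 of the 9 lower ones lie at Ttn, and 3 of the 5 higher metabolic ones lie at Eno3. In myoblasts against ESC the list gave 1 of 22 higher and 2 lower, beside 8.22% and 11.7% over all fragments. In day 4 myotubes against ESC it gave 0 of 23 higher and 2 lower, beside 5.42% and 5.93%. In muscle against day 4 myotubes no fragment of either list was called, as in the whole table. Without E14Tg2 the 17 calls in muscle against ESC became 11. The 14 calls in muscle against myoblasts became 0 without muscle 1 or muscle 2, 5 without culture 27 and 8 without culture 26. The 3 calls in myoblasts against ESC became 5 without CGR8, culture 21 or culture 26.

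At Ckm, the muscle creatine kinase gene, a promoter fragment of 852 bp had 34.0, 52.6 and 58.8 rpm in muscle and 0.408, 0 and 0.119 rpm in ESC (8.41 ± 0.78 log2, edgeR adjusted p = 2.83e-05). At Eno3, which encodes the muscle enolase, a promoter island fragment of 228 bp had 6.75, 4.68 and 1.79 rpm in muscle and 0, 0.103 and 0 rpm in myoblasts (7.09 ± 1.10, edgeR adjusted p = 0.0120). The muscle libraries also had more promoter island reads than the myoblasts of cultures 21 and 26, and the part of those reads in the Eno3 value was not tested. At Ttn, which encodes the giant sarcomere protein titin, a fragment of 303 bp had 85.004, 84.2 and 118 rpm in muscle and 1429, 510.03 and 991 rpm in myoblasts (-2.94 ± 0.56, edgeR adjusted p = 0.0121). The Eno3 and Ttn calls were lost without muscle 1 or muscle 2. At Myom1, which encodes the M-band protein myomesin, a fragment of 24405 bp had 0, 0 and 0.0995 rpm in muscle against 109, 99.6 and 75.5 rpm in ESC (-10.41 ± 0.73, edgeR adjusted p = 9.33e-06). Its length is unusual for a well-read fragment, since 78.58% of those of 2000 bp or more had at most 10 reads in every library. Strain and cell type cannot be told apart in the Ckm and Myom1 comparisons with ESC. The muscle and comparison samples of these 4 genes do not overlap. Their fragments were picked as strongest calls in the same samples, so the separation adds nothing to the calls.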

How the data were processed

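The 23 AIMS-seq libraries, in 9 groups, were sequenced on the Illumina GA2 and mapped to mm9, per the labels' protocols. Bowtie 0.11.3 and an unversioned DESeq appear in the submitters' processing notes. The deposited table gives unnormalized whole-number counts of reads for each fragment and library, per the file headers. The authors' deposited comparison tables give a log2 ratio of mean scaled values after adding 1, and p-values from DESeq with pooled and per-condition dispersion, per the file headers. These tables were used only where named, and 184 further per-sample columns were not used.

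Fragment ends were checked against mm9 sequence, and 100% of 346860 lie at CCCGGG. Genes came from GENCODE M1, promoters from RefSeq (GRCm38.p6), placed on mm9 by exact match. Counts were tested with edgeR 4.0.16 under R 4.3.3 (2-sided quasi-likelihood test, TMM scaling, a filterByExpr minimum count of 10, Benjamini-Hochberg adjustment across every fragment tested, threshold 0.05) on the groups compared, after a check on simulated data. The trend used all days of the cultures. DESeq2 1.42.0 and other settings were alternatives. Of the 26 members, 3 passed the filter in at least 1 comparison and 23 never did. Fragments named are the Mef2c shore, those called or tested, the Mef2c fragment beside the shore, which was added after its values were seen, and, for each list, the strongest call in each direction. Levels are raw reads scaled to 1000000, with 95% Poisson intervals for single libraries, and depth limits low values. Myoblast and myotube libraries carry the culture number in their titles, which pairs them: 18 same-culture pairs deviated together with r of 0.191 to 0.875, against -0.770 to 0.389 for 36 pairs of different cultures. P-values set a change against the modelled spread between these samples, and the main fits of the stages hold no term for culture. Members, lists and settings were chosen with earlier results of these data known. A pair of settings was added after seeing the data, the first CGR8 library alone and muscle 3 as the only muscle sample.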

Additional observations from a re-analysis of the deposited data

Results flagged for a closer look

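The fresh libraries enter no test because each is a single sample, and the values listed here are those above the 3 reads that a count of 0 allows. With injury and without, the Mef2c 611 bp fragment had 109 and 59 reads and the Mef2d 819 bp fragment had 405 and 202. The Mef2a 4752 bp fragment had 5 and 6 reads and the Mef2c 360 bp fragment had 4 and 7. In the library without injury the Mef2c fragments of 131794 bp and 102548 bp had 5 and 4 reads.

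Among the 4 ESC libraries, the CGR8 technical replicate had 1 read at the Mef2a 4752 bp fragment and the others had 0, so its gap to the nearest library was 1.0 of the whole range. Any single read among 4 libraries gives that gap, and a single read is below what the depth can resolve.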

How the results depend on the processing

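The counts of called MEF2 fragments were small and moved with the processing; the cause was not tested. In muscle against ESC 2 fragments were called, and 1 with all groups in 1 fit, with the CGR8 libraries kept apart, with the first CGR8 library alone or with muscle 3 alone, and 1 to 2 when each sample was left out. In muscle against myoblasts 1 was called, 2 with DESeq2 and 0 with muscle 3 alone, and 0 to 2 when each sample was left out. In day 4 myotubes against ESC 1 was called, 2 without the low-count filter, and 0 to 1 when each sample was left out. In myoblasts against ESC 1 was called, 0 with library totals, with fragments under 2000 bp, with all groups in 1 fit or with the first CGR8 library alone, and 0 to 2 when each sample was left out. With the culture as replicate block, the paired fit, 0 MEF2 fragments were called on days 1, 2 and 4, in the trend and against passage 0, as without it. Log2 changes that turned sign were all far from the threshold. The Mef2c shore in muscle against day 4 myotubes was -0.24 with library totals and -0.10 to 0.54 when each sample was left out, and in myoblasts against passage 0 it was -0.17 to 1.09. The Mef2d fragment was -0.36 to 0.16 on day 1 and -0.77 to 0.011 on day 4 against myoblasts, and the Mef2a 4752 bp fragment was -1.07 to 0.046 on day 1. Without the filter, the Mef2a 4752 bp fragment was called higher in myoblasts than in ESC (edgeR adjusted p = 0.00374) and lower in muscle than in myoblasts (0.0162). List counts moved too. In muscle against day 4 myotubes the partners and regulators had 0 calls but 12 with DESeq2, 3 without the filter and 13 with all groups in 1 fit, and the targets 0 but 7, 1 and 3. In muscle against ESC the 36 and 17 calls were 22 and 11 with all groups in 1 fit and 14 and 6 with muscle 3 alone, and in muscle against myoblasts the 22 and 14 were both 0 with muscle 3 alone. In myoblasts against ESC the 15 partner calls were 9 with fragments under 2000 bp and 7 with all groups in 1 fit, and the 3 target calls were 6 with DESeq2, 9 without the filter and 1 with fragments under 2000 bp. In day 4 myotubes against ESC the 5 and 2 were 12 and 7 without the filter and 1 and 0 with fragments under 2000 bp, and the 2 target calls were 1 with the first CGR8 library alone. In muscle against myoblasts the 14 target calls were 8 with fragments under 2000 bp. Low reads limit 22 of the 26 fragments, which had 10 or fewer in every library.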
